A study of Homo sapiens with 4 samples.

Results

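The regions described here are the CEBPB binding sites inside 5 clusters of zinc finger genes on chromosome 19. They were chosen by position alone: every peak summit, or region found in both replicates, between 19.9 and 24.4 Mb (cluster 1, mostly band 19p12), 36.5 and 38.4 Mb (cluster 2, mostly 19q13.12 and reaching into 19q13.13), 44.3 and 45 Mb (cluster 3, 19q13.31), 52.3 and 54.1 Mb (cluster 4, 19q13.41 and 19q13.42) or 56 and 59.1 Mb (cluster 5, mostly 19q13.43) of the hg19 build. The clusters span 12 Mb, or 20.3% of the chromosome. They held 140 of 80530 summits of replicate 1, 211 of 104307 summits of replicate 2 and 37 of 25602 reproducible regions of chromosomes 1 to 22 and X.

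Chromatin came from NCM460, an established line of human colon epithelial cells, grown untreated and with no genetic change named in the labels. One group was precipitated with an antibody to CEBPB (2 samples, described as independent experiments), and the other was input DNA (2 samples), which enters only through the background that the authors' peak caller used. No expression data were analysed here, so the identity of the cells was not checked against markers.

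CEBPB is a basic leucine zipper factor of the C/EBP family that binds as a dimer to paired half-sites. Most genes of these clusters encode C2H2 zinc finger proteins, many with a KRAB domain, which recruits the corepressor TRIM28 to silence transposable elements and other targets. The genes arose by repeated tandem duplication and stand side by side: cluster 1 carries ZNF43, ZNF91 and ZNF208, cluster 2 ZNF420 and ZNF568, cluster 3 ZNF45 and ZNF224, cluster 4 ZNF83 and ZNF160, and cluster 5 ZNF264, the imprinted PEG3 and TRIM28 itself. In many cell types the bodies of such genes carry the heterochromatin mark H3K9me3, which was not measured here. Other zinc finger genes lie elsewhere on the chromosome, for example in 19p13.2, and belong to the rest of chromosome 19 in every comparison.

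RefSeq promoters (build GRCh38.p14, from 250 bases before to 50 bases after each start site) were searched on both strands for a C/EBP-like motif. The motif was TTGCNNAA, whose reverse is TTNNGCAA. It fixes the half-site TTGC in full but only the AA of its partner GCAA, so a match need not hold both half-sites. The motif was present in 15 of 287 promoters of chromosome 19 genes whose symbols begin with ZNF, ZFP, ZSCAN, ZIM or ZIK (5.23%; 229 of 265 such protein-coding genes had a promoter in the table). It was present in 80 of 1261 promoters of the other protein-coding genes of the chromosome (6.34%) and in 1924 of 22132 promoters of all protein-coding genes (8.69%). These are descriptions of letters and not of bound sites, and since the build differs from that of the peaks no promoter was matched to a peak. Only matches whose printed window of 30 bases lay wholly upstream of the start site were ranked by distance to it. The 4 nearest of these are printed 5′ to 3′ along the gene with the motif in capitals. ZSCAN5A and ZNF790 are on the minus strand, and ZNF419 and ZNF345 on the plus strand.
ZSCAN5A: gcgcagagactTTTCGCAAgaattgattca
ZNF790: cccaaggccgcTTGCCCAAatccgcgggaa
ZNF419: cgggaactacaTTGCCCAAaaggcgcagcg
ZNF345: gggctgtagctTTCGGCAAcctgtcgcttt
The motif ended 50, 87, 96 and 101 bases before the start site in these genes.

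CEBPB sites were sparse in the zinc finger clusters. A reproducible region is an interval of the authors' deposited table of irreproducible discovery rates (IDR), which keeps peaks ranked alike in both replicates and stops at a global IDR of 0.05. The 5 clusters held 37 such regions, or 3.08 per Mb (95% exact Poisson interval 2.17 to 4.25), and the rest of chromosome 19 held 647, or 13.7 per Mb (12.7 to 14.8). The density in the clusters was therefore 4.45 times lower (exact interval 3.20 to 6.38, two-sided exact conditional binomial test, adjusted p = 5.5e-28). It also lay below the 8.43 regions per Mb of chromosomes 1 to 22 and X together.

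Each replicate showed the same on its own. In replicate 1 the clusters held 11.7 summits per Mb and the rest of the chromosome 43.0, a density 3.68 times lower (3.10 to 4.40, adjusted p = 5.5e-72, exact test). In replicate 2 the values were 17.6 and 53.1 summits per Mb, 3.02 times lower (2.62 to 3.49, adjusted p = 5.6e-72, exact test). Both replicates thus had fewer summits in the clusters, and the difference was larger than that between the replicates. Inside the 1 Mb on either side of each cluster, without centromeric bands, the density was 12.7 regions per Mb (10.4 to 15.5). The rest of the chromosome, also without centromeric bands, had 15.0 regions per Mb (13.9 to 16.3).

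**Figure D1:**
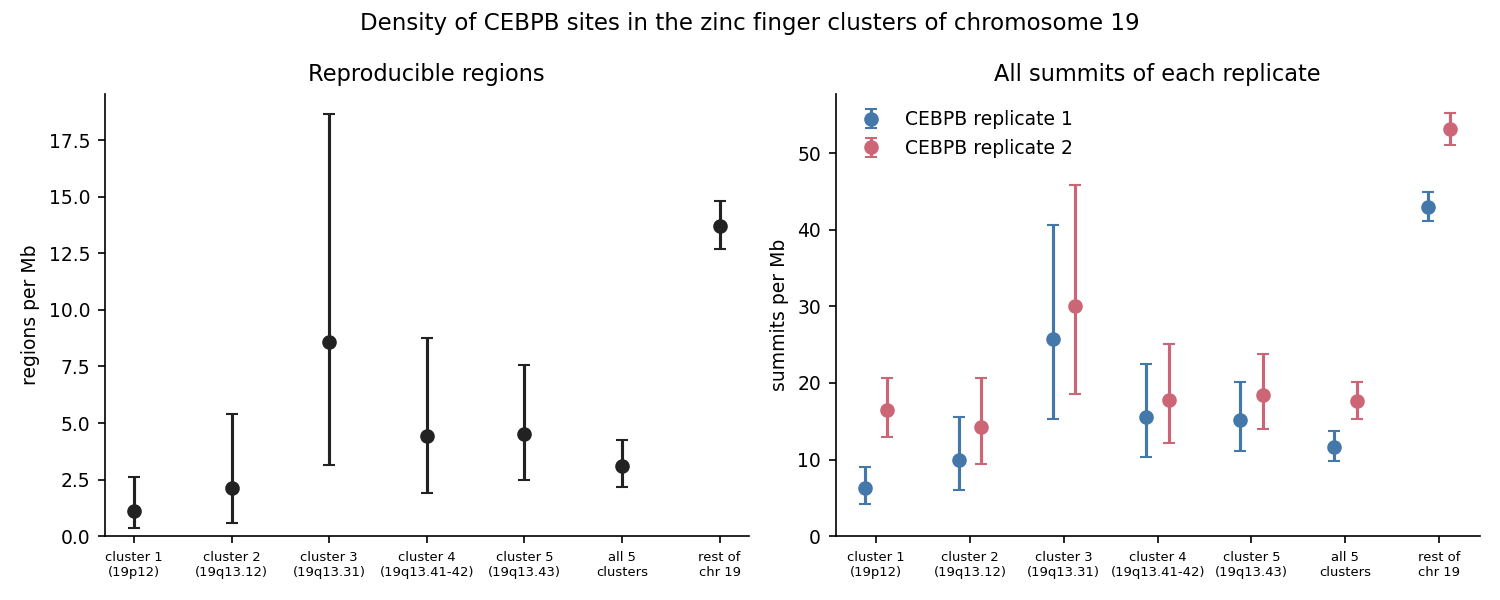
Reproducible regions per Mb (left) and summits per Mb of each CEBPB replicate (right) in each zinc finger cluster, in all 5 and in the rest of chromosome 19; bars are exact 95% Poisson intervals. Every cluster lies below the rest, and cluster 3 has the widest interval, from 3.15 to 18.7 regions per Mb.

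The position of the clusters' edges mattered for the size of the difference. With every cluster shortened by 0.2 Mb at each end, only 19 of the 37 regions were left. Those lost included all 4 of cluster 2 and the strongest of clusters 3 and 5. The density ratio of clusters to rest then fell from 0.225 to 0.138, and with every cluster lengthened by as much it rose to 0.315. A strong region lay 0.5 kb beyond the end of cluster 4, with a fold of 34.4 in replicate 1 and 31.5 in replicate 2, whereas the last region inside, 17 kb from that end, had 11.1 and 14.3. At the start of cluster 1 the nearest region outside lay 55.8 kb away, with folds of 18.3 and 26.2, and the first region inside lay 1789 kb away, with 24.0 and 27.1. At the start of cluster 2 the nearest regions were 14 kb outside (folds 13.38 and 18.8) and 32.2 kb inside (22.5 and 29.4). At the start of cluster 3 they were 38.2 kb outside (12.3 and 10.4) and 28.9 kb inside (10.2 and 8.72), and at the start of cluster 5, 150 kb outside (19.7 and 24.5) and 58.8 kb inside (8.61 and 16.9). At the start of cluster 4 they were 446 kb outside (13.7 and 10.8) and 13.2 kb inside (8.05 and 16.4). At the end of cluster 1 the last region inside lay 142 kb away (9.05 and 14.1), and the next outside, across the centromere, 3867 kb away (19.01 and 16.4). At the end of cluster 2 the nearest region outside lay 32.7 kb away (18.1 and 10.3) and the last inside 1752 kb away (13 and 9.79), and at the end of cluster 3, 91.9 kb outside (18.9 and 29.2) and 492 kb inside (23.9 and 17.4). The last region of cluster 5 lay 33.5 kb from its end (15.4 and 13.10), with none beyond. These are single regions, and no test was made of them.

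The clusters were not alike among themselves. Cluster 1, the long block next to the centromere, held the fewest for its 4.5 Mb: 5 regions, 1.11 per Mb (0.361 to 2.59). This was 12.4 times lower than the rest of the chromosome (5.27 to 38.2, adjusted p = 1.1e-18 over 5 clusters, exact test). Cluster 2 followed with 4 regions at 2.11 per Mb, 6.52 times lower (2.53 to 24.0, adjusted p = 9.5e-07, exact test). Clusters 4 and 5 held 8 and 14 regions at 4.44 and 4.52 per Mb, which was 3.09 times (1.56 to 7.19, adjusted p = 0.00030) and 3.04 times lower (1.80 to 5.59, adjusted p = 2.4e-06; exact tests). Cluster 3, the shortest at 0.7 Mb, held 6 regions at 8.57 per Mb, and this did not differ detectably from the rest (1.60 times lower, interval 0.732 to 4.38, adjusted p = 0.33, exact test).

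Across the 10 pairs of clusters, cluster 1 was lower than cluster 3 (7.71 times, interval 1.96 to 32, adjusted p = 0.015), cluster 5 (4.06 times, 1.38 to 14.4, adjusted p = 0.022) and cluster 4 (4 times, 1.15 to 15.5, adjusted p = 0.045; exact conditional tests). The other 7 pairs did not pass, with adjusted p from 0.071 to 1.00. In the order from cluster 1 through 2, 4 and 5 to 3, no neighbours differed beyond counting error. The density ratio of cluster 1 depended on the sites counted: against 0.0809 for reproducible regions, it was 0.145 for all summits of replicate 1 and 0.310 for those of replicate 2. With all summits counted, cluster 3 was also below the rest, at a ratio of 0.598 in replicate 1 (exact p = 0.026) and 0.565 in replicate 2 (exact p = 0.0061), neither adjusted.

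Long stretches inside the clusters held no reproducible region. Whether the sites were more gathered than their low density alone would give was not tested. Of 120 windows of 100 kb, 22 (18.3%) held a reproducible region, against 284 of 429 windows (66.2%) in the rest of the chromosome without centromeric bands. No summit of either replicate lay in 43 of the 120 windows (35.8%), against 52 of the 429 (12.1%). In cluster 2 all 4 regions lay near the start, and the remaining 1752 kb (92.2% of the cluster, from 36648478 to 38400000) held none. In cluster 1, 2187 kb (21688853 to 23875693) held none, in cluster 5, 1058 kb (56732931 to 57791267), in cluster 4, 722 kb (52772920 to 53494427), and in cluster 3, 492 kb at its end (44507798 to 45000000).

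The longest stretches without a summit in either replicate were 571 kb in cluster 1 (20277887 to 20849197), 564 kb in cluster 5 (56881853 to 57446287), 495 kb in cluster 2 (37070368 to 37565190), 297 kb in cluster 4 and 138 kb in cluster 3. Such stretches also occurred outside: the longest in the rest of the chromosome was 1037 kb (30970376 to 32007148, in 19q12). Among 41 windows of 1 Mb in the rest, the median density was 17 regions per Mb, and 3 windows were at or below the 3.08 of the clusters. These were 2 windows in 19q12 and the window from 9 to 10 Mb in 19p13.2, with 3 regions.

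**Figure D2:**
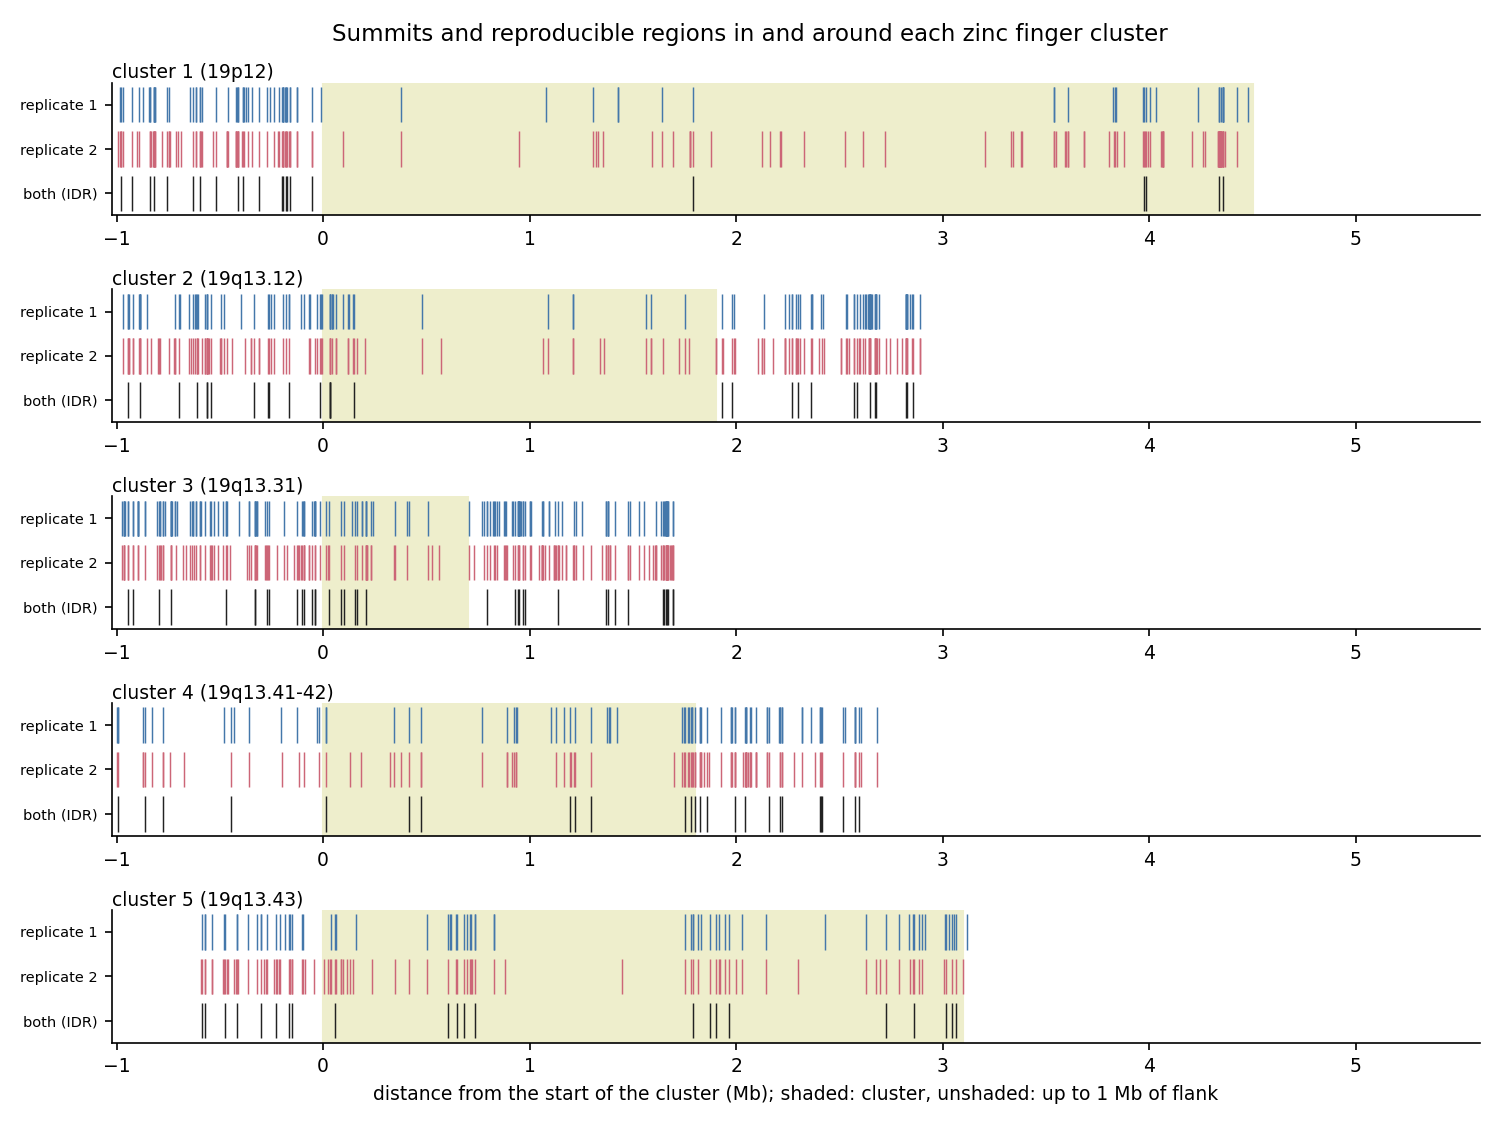
Positions of the summits of each replicate and of the reproducible regions (IDR) in each cluster (shaded) and up to 1 Mb of flank, as distance from the start of the cluster in Mb. Cluster 2 has no reproducible region over its last 1752 kb.

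The reproducible regions of the clusters had a lower median strength than those of the rest, though strong sites were among them. Fold is the authors' ratio of the ChIP signal at the summit to the local input background, and fragments are the reads stacked at the summit before scaling, recovered from the fold and p-value. The 37 regions had a median fold of 11.8 in replicate 1 (quartiles 9.75 and 17.6) and 14.1 in replicate 2 (10.8 and 17.7), whereas the 647 regions of the rest had 15.2 (10.9 and 21.8) and 16.1 (11.6 and 22.6). Their mean fold over the replicates ran from 9.36 to 33.7, and 11 of 37 (29.7%) exceeded the median of all chromosomes, against 317 of 647 (49.0%) in the rest. A mean fold of at least 20 was reached by 9 of 37 members (24.3%) and by 206 of 647 regions of the rest (31.8%). The median heights were 40 and 60 fragments in replicates 1 and 2, against 53 and 70 in the rest. These differences in fold were not tested, since regions are not replicates of a condition.

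A global IDR of at most 0.01 was reached by 15 of 37 members (40.5%) and by 377 of 647 regions of the rest (58.3%), which was not tested. The width, the distance between summits of the replicates and the ratio of their fragments were like those of the rest. Their median width was 388 bp, against 398 bp. Their summits differed in position between replicates by 7 bp in the median, against 8 bp, and by at most 37 bp. The median ratio of fragments of replicate 2 to replicate 1 was 1.29, against 1.31 in the rest. Members stood farther apart, which a lower density alone would also give. The nearest other reproducible region was a median of 29.7 kb away, against 15.3 kb, and 7 of 37 (18.9%) had one within 10 kb, against 244 of 647 (37.7%).

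**Figure D3:**
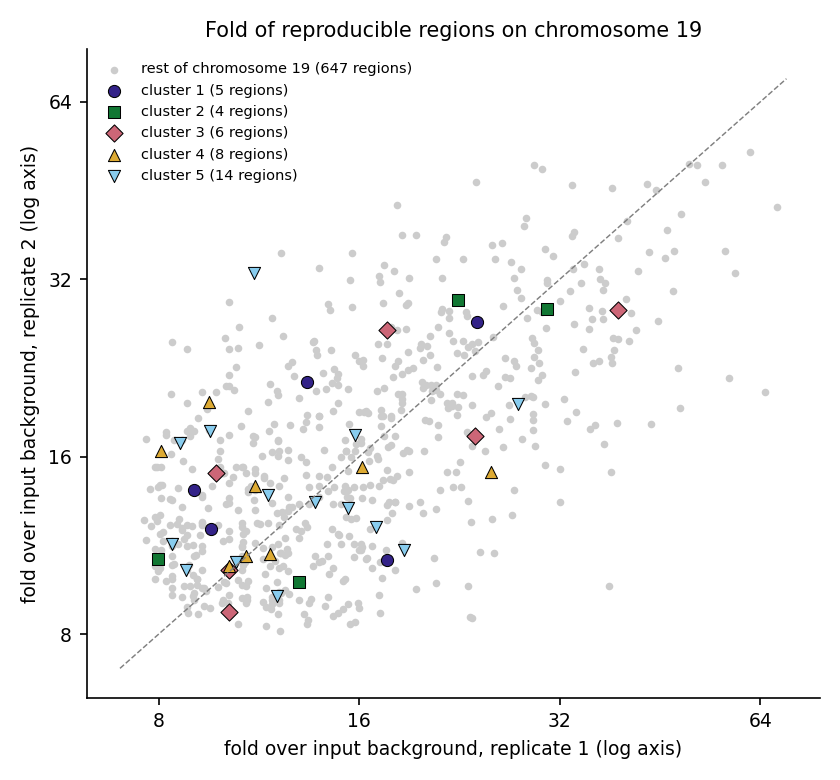
Fold over input background of each reproducible region of chromosome 19 in replicate 1 (horizontal) and replicate 2 (vertical), both on log axes; coloured symbols are the 37 regions of the clusters, grey points the 647 of the rest, and the dashed line marks equal fold. The members are spread through the cloud, and 11 of 37 lie above the median mean fold of all chromosomes. The highest are at 39.1 in replicate 1 and 32.8 in replicate 2.

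The site with the most fragments over both replicates lay in cluster 3, on chromosome 19 at 44455006 to 44455426, with 125 in replicate 1 and 156 in replicate 2. In replicate 1 alone a region of cluster 2 had more, with 128. The cluster 3 site had folds of 39.1 and 28.4 (33.7 ± 7.57, SD, n = 2), the highest mean among the members. Its mean fold lay above 93.6% of the reproducible regions of all chromosomes. The next in cluster 3 lay at 44462033 to 44462426, with folds of 17.6 and 26.2 and 37 and 76 fragments. Its background was 1.00 and 1.36 on the scaled signal, the lowest value given in each replicate. Of these neighbours, the first was the taller in both replicates. The third, at 44506956 to 44508069, was the widest member with 1114 bp and had folds of 23.9 and 17.4. It had more fragments than the second, 102 and 78, over a background of 3 and 2.65. The other 3 regions of cluster 3 had mean folds of 9.47 to 12.4 and at most 43 fragments.

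In cluster 2 the pair of strong sites lay side by side. The region at 36532592 to 36533052 had folds of 30.6 and 28.4 (29.5 ± 1.54, SD, n = 2) with 128 and 141 fragments. The region at 36531962 to 36532353 had 22.5 and 29.4 (26.0 ± 4.93, SD, n = 2) with 90 and 116 fragments. Their order by fold was reversed in replicate 2, and both were well above the third, at 36648349 to 36648622, with 13 and 9.79. The fourth, at 36533599 to 36533916, had the lowest mean fold of all members, 9.36.

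In cluster 1 a single strong site stood alone in the middle, at 21688578 to 21689090, with folds of 24.0 and 27.1 (25.5 ± 2.17, SD, n = 2) and 112 and 154 fragments. The other 4 lay toward the centromeric end. The region at 23882989 to 23883475 had folds of 13.36 and 21.4 with 71 and 79 fragments, over a background of 4 and 2 on the scaled signal. The region at 23875561 to 23875874 had 17.6 and 10.7 with 37 and 35 fragments, over a background of 1.00, the lowest value given in replicate 1, and 1.72. These folds differed between the replicates in opposite directions, while the fragments were nearly equal. Replicate 2 gave 52.7% of the fragments of the first and 48.6% of the second, where 56.9% and 59.4% were the medians at like height. Neither passed the fragment test described below. The last 2 regions had mean folds of 10.8 and 11.6.

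In cluster 4 the strongest region lay at 52772549 to 52773158, with folds of 25.2 and 15.1 (20.2 ± 7.19, SD, n = 2) and 72 and 93 fragments. The region at 54052626 to 54052981 had 16.1 and 15.4 with 43 and 60 fragments. The region at 52715370 to 52715823 had 9.52 and 19.8 with 40 and 98 fragments, so that its place depended on the replicate. The other 5 regions of cluster 4 had mean folds of 10.3 to 12.7.

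In cluster 5 the strongest region lay near the end of the chromosome at 59016083 to 59016557, with folds of 27.7 and 19.6 (23.7 ± 5.70, SD, n = 2) and 70 and 97 fragments. The region at 56602123 to 56602910 had folds of 11.1 and 32.8 (21.9 ± 15.3, SD, n = 2). Its fragments were nearly equal at 107 and 110, while the background was 8 in replicate 1 and 1.72 in replicate 2 on the scaled signal. Replicate 2 gave 50.7% of these fragments, where 55.0% was the median at that height. The region at 56649404 to 56649732 had 15.8 and 17.4 with 42 and 64 fragments. The other 11 regions of cluster 5 had mean folds of 9.52 to 14.9.

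Fragments at 3 of the 37 members differed between the replicates by more than counting error, against 13 of 647 regions in the rest of chromosome 19 and 748 of 25602 regions (2.92%) over all chromosomes (two-sided exact binomial tests, adjusted p of at most 0.05). The region at 56732728 to 56733079 in cluster 5 had 73 and 49 fragments, so that replicate 2 gave 40.2% of them where 57.5% was the median at that height (adjusted p = 0.014, exact). The region at 44506956 to 44508069 in cluster 3 had 102 and 78 fragments (adjusted p = 0.033, exact). In the opposite direction, the region at 52715370 to 52715823 in cluster 4 had 40 and 98 fragments (adjusted p = 0.029, exact). These tests compare the 2 libraries and leave out ordinary variation between experiments.

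Densities were lower in the clusters for summits of all 4 classes of fold, and the ratio was lowest in the strongest class. For summits with a fold below 5, the density in the clusters was 3.24 times lower than in the rest in replicate 1 and 2.52 times lower in replicate 2. For a fold of 20 or more, the clusters held 7 summits in each replicate, against 198 and 223 in the rest, which was 7.20 times lower in replicate 1 and 8.11 times lower in replicate 2. The share of strongest against weakest summits differed between clusters and rest in replicate 2 (odds ratio 0.311, interval 0.118 to 0.693, adjusted p = 0.0029, two-sided Fisher's exact test). In replicate 1 the odds ratio was 0.450 (0.167 to 1.04, adjusted p = 0.061, exact test).

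**Figure D4:**
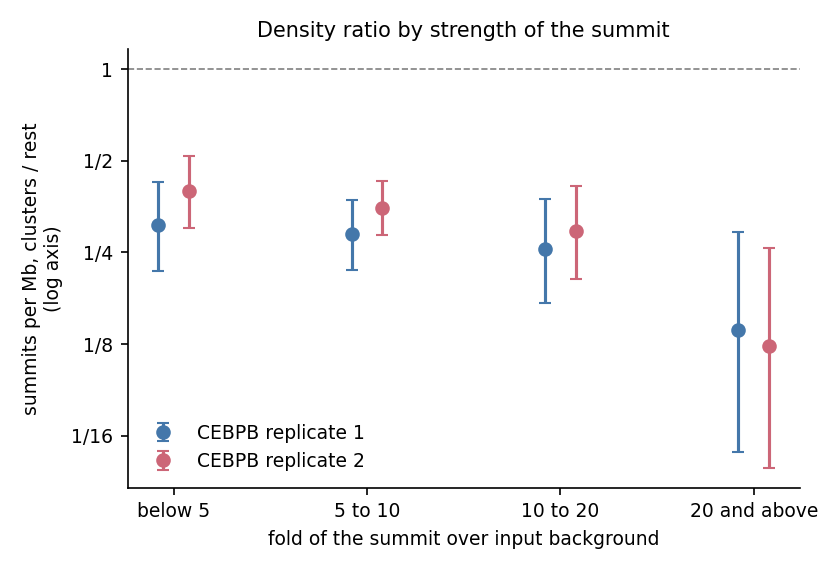
Ratio of the density of summits in the clusters to that in the rest of chromosome 19 (vertical, log axis) for classes of fold over input background (horizontal), for each replicate; bars are exact 95% intervals and the dashed line marks equal density. All ratios lie below 1, and those for a fold of 20 and above are the lowest in both replicates (0.139 and 0.123).

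Over the 5 clusters together, a smaller share of the peaks of each replicate had a partner in the other, but neither difference passed the test once cluster 1 was left out. For these counts a peak is a distinct interval, shared if it overlaps a peak of the other list by at least 1 bp. In replicate 1, 94 of 135 peaks (69.6%) were shared, against 79.8% in the rest of the chromosome and 82.0% over all chromosomes (odds ratio 0.582, interval 0.392 to 0.877, adjusted p = 0.0092, two-sided Fisher's exact test). In replicate 2, 94 of 204 peaks (46.1%) were shared, against 64.9% in the rest and 62.8% over all chromosomes (odds ratio 0.463, interval 0.343 to 0.624, adjusted p = 3.6e-07, exact test). Into the IDR table went 38 of 135 peaks of replicate 1 (28.1%, against 34.3% in the rest and 34.2% over all chromosomes, adjusted p = 0.16) and 37 of 204 of replicate 2 (18.1%, against 27.8% and 26.3%, adjusted p = 0.0030; exact tests). Without cluster 1, 78 of 109 peaks of replicate 1 (71.6%, odds ratio 0.639, interval 0.409 to 1.02, exact p = 0.051) and 77 of 134 of replicate 2 (57.5%, odds ratio 0.732, 0.507 to 1.06, exact p = 0.095) were shared, and neither passed. The share of replicate 2 that entered the IDR table did not pass without cluster 1 (odds ratio 0.814, exact p = 0.37) or against the 1 Mb flanks alone (0.706, exact p = 0.12).

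Sharing was lowest in cluster 1 in replicate 2. There, 17 of 70 peaks (24.3%) were shared, against 64.9% in the rest (odds ratio 0.174, interval 0.0938 to 0.308, adjusted p = 1.1e-10 over 10 tests, Fisher's exact test). The other 9 combinations of cluster and replicate did not pass, with adjusted p from 0.23 to 1.00. Cluster 1 had 28 summits in replicate 1 and 74 in replicate 2, a ratio of 2.64, against 1.24 in the rest of the chromosome. The 53 peaks of cluster 1 seen in replicate 2 alone had a median fold of 4.87 and 16 fragments and none above a fold of 11.3. Such peaks were about as low in the rest of the chromosome, where 822 had a median fold of 5.17 and 17 fragments and a highest fold of 11.6. They differed in background: 56.6% of the 53 had the lowest value given in replicate 2, against 34.1% of the 822, which was not tested. In both replicates the summits crowded toward the centromere, with 21 of 28 (75%) and 46 of 74 (62.2%) in the last 1 Mb of the cluster.

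The input background at the summits is known only where a peak was called, so the share of these repetitive sequences to which reads can be aligned was not tested. On the scaled signal its median was 2 in the clusters and 2 in the rest in replicate 1, and 1.72 and 2 in replicate 2. Summits at the floor of the background, below which no summit was given a value, were more frequent in the clusters. They made up 36 of 140 summits (25.7%) in replicate 1, against 12.3% in the rest and 10.8% over all chromosomes (odds ratio 2.47, interval 1.60 to 3.73, adjusted p = 6.4e-05, two-sided Fisher's exact test). In replicate 2 they made up 78 of 211 (37.0%), against 20.0% and 17.0% (odds ratio 2.34, interval 1.72 to 3.18, adjusted p = 1.4e-07, exact test). Both held without cluster 1, at odds ratios of 2.38 and 2.02.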

How the data were processed

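CEBPB ChIP-seq and input samples of NCM460 were analysed from one peak list per ChIP sample and a table of irreproducible discovery rates (IDR) for the pair. The submitters' processing notes name Bowtie2 2.3.4, SAMtools 1.9, MACS2 2.1.2, bedtools 2.25.0, FastQC 0.11.7 and hg19, with no settings. In the deposited lists, called per sample, each summit carries a score, its fold over background and, as −log10, both a p-value and a q-value. The authors' deposited IDR table gives the −log10 of the global IDR, of at most 0.05 in all 27544 entries; its intervals matched the lists in 27544 entries, and 2 columns of values per sample were not used here. Total read numbers were not held, so depth is known only at summits, as fragments.

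Fragments and background were solved from the authors' fold (pseudocount 1) and the Poisson −log10 p. Only whole numbers of fragments were tried. With 0.927 scaled reads per fragment in replicate 1 and 0.800 in replicate 2, the −log10 p was matched within 0.005 at 100% of summits. The step returned 100% of 3998 and 3986 simulated summits. These were drawn with the same scale and background floor, so the simulation did not test those settings. Entries with the same interval were merged, and in each replicate the summit nearest to that of the entry was used. A summit was placed by its start plus offset. Densities were compared with two-sided exact conditional binomial tests and shares with two-sided Fisher's exact tests, with exact 95% intervals and Benjamini-Hochberg adjustment over 9 comparisons with the rest of the chromosome, 5 clusters, 10 pairs of clusters, 10 shares per cluster and 2 strength classes. All of these cover counting error only, and peaks lie near each other and are not independent. Fragments were compared between replicates over 25602 regions by exact binomial tests, taking the median over 1001 regions of like height as the expected share. Band limits came from circlize 0.4.16. The tools were Python 3.11.15, SciPy 1.17.1, statsmodels 0.14.6 and matplotlib 3.10.9.

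The named sites are the 3 strongest reproducible regions of each cluster by mean fold, the region with the most fragments, the regions nearest to each boundary, the regions that passed the fragment test and the longest stretches without a site. The members and tests were chosen with earlier results of these data known, and the tests of pairs, of shares per cluster, of strength classes and without cluster 1 were added after the data were seen. The alternatives tried are given at the end. Genes are named as background only, since no hg19 annotation was used here.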

Additional observations from a re-analysis of the deposited data

How the results depend on the processing

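Apart from the results named here, the directions and sides of the threshold were kept in 57 of 66 alternative values. Each changed one choice, except that densities without a replicate also replaced the reproducible regions, which need both replicates, by all summits of the other. At a global IDR of at most 0.01, fewer peaks of replicate 1 in the clusters entered the table (odds ratio 0.504, exact p = 0.013, against 0.752 as reported) and the median mean fold of the members rose from 13.6 to 20.6, over the 15 regions left. The median of the rest was not taken at that limit, so this rise was not set against it. Against the 1 Mb flanks alone, the odds ratio to enter the table in replicate 2 was 0.706 (exact p = 0.12); the cause was not tested. These density ratios without a replicate were 0.272 to 0.331 for all clusters and 0.565 to 0.598 for cluster 3, which then passed the threshold with more sites counted. Over the same 37 regions, the median fold in 1 replicate alone was 11.8 to 14.1. Without cluster 1, a setting chosen after seeing the data, the density ratio was 0.311, the odds ratio to be shared was 0.639 in replicate 1 (exact p = 0.051) and 0.732 in replicate 2 (exact p = 0.095), and that to enter the table in replicate 2 was 0.814 (exact p = 0.37), so that these 3 calls were lost; fewer peaks were then tested. No paired analysis was possible because input has no values of its own in the files used here, so ChIP and input were not compared. Precision is limited by the 37 regions and by 2 replicates.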
